A study of Mus musculus with 64 samples.

Results

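Eepd1, Elmsan1 and Gprc5b are 3 little-studied genes selected on their RNA response in wild-type macrophages to ligands of the aryl hydrocarbon receptor (AhR), and they are 3 of the 55487 genes in the count tables. The ligands were benzo[a]pyrene (BaP), a product of combustion, and a compound of cruciferous vegetables, indole-3-carbinol (I3C). All 3 passed the filter on low counts, as did 14537 genes in all. Because the ligand responses of Ahr+/+ cells chose them, every value that rests on bacteria-activated Ahr+/+ cells is a description here, with no test. The tests below compare only Ahr-/- cells and unactivated cells, with the spread estimated over all 64 libraries. The stated rule of the choice names Ahr+/+ responses alone. Earlier results of these data were known, however, so the Ahr-/- results cannot be taken as fully independent of the choice.

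The 64 libraries are mRNA of bone marrow-derived macrophages (BMMs), cells grown from marrow of 8 to 12 week old mice in medium with M-CSF from L929 cells. They form 16 groups of 4, which combine 2 genotypes, 2 time points and 4 treatments. Ahr+/+ (C57BL/6JRj, from Janvier) and Ahr-/- (C57BL/6, founders from Jackson, crossed back in-house) BMMs were kept for 6 h with a ligand (1 µM for BaP and 10 µM for I3C) or with 0.01% DMSO, the solvent, and then received 10000000 heat-killed Salmonella enterica Enteritidis (hk S.E.) per ml for 3 h or 20 h. A further group of each genotype and time point received DMSO and no hk S.E., and is called unactivated here. The ligands were thus only given to cells that later received hk S.E., and genotype and source of the mice cannot be told apart. Marrow of 4 mice per genotype was used, and the labels do not tie a library to a mouse.

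The total count on genes lay between 12152496 and 233047331 per library (median 24499165), and the deepest was an unactivated Ahr+/+ library at 20 h. Levels are given in CPM, which are counts scaled to a common library total with TMM factors, and each group value as mean ± SD over 4 libraries. All 8 macrophage markers were present, with a summed level of 17491.9 to 35117.2 CPM, whereas B cell, T and NK cell, dendritic cell, fibroblast and erythroid or mast cell markers each summed to at most 8.35 CPM. Of 7 neutrophil markers, 4 passed the filter (S100a8, S100a9, Camp and Ngp), and Ly6g, Elane and Mpo had no count in 35, 41 and 44 of 64 libraries. The neutrophil markers together summed to 10.2 to 245 CPM. Counts on Ahr itself did not follow the genotype label: after DMSO and hk S.E. for 3 h they stood at 7.01 ± 2.18 CPM in Ahr+/+ and 12.9 ± 0.134 CPM in Ahr-/- BMMs. A count over the whole gene does not show whether a deleted part is read. Ahrr, the AhR repressor and a target of the receptor, did follow it, with BaP and DMSO at 18.7 ± 1.52 CPM against 5.63 ± 0.714 CPM in Ahr+/+ BMMs and 0.911 ± 0.241 CPM against 0.738 ± 0.0822 CPM in Ahr-/- BMMs, both at 20 h of hk S.E.

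The AhR is a transcription factor that senses planar aromatic compounds. With its partner ARNT it drives genes such as Cyp1a1 and Ahrr through short DNA motifs called AHRE. Macrophages meet bacterial products through pattern recognition receptors, and this activation reshapes much of their transcriptome, lipid handling included. Eepd1 is known as a target gene of the liver X receptors (LXR), the oxysterol sensors of macrophages. EEPD1 holds an endonuclease/exonuclease/phosphatase domain, and has been described both in cholesterol efflux and in the repair of stalled replication forks. ELMSAN1, now also called MIDEAS, is the ELM2 and SANT domain scaffold of the mitotic deacetylase complex MiDAC, which holds HDAC1 or HDAC2. GPRC5B is an orphan class C receptor of the GPRC5 family, whose founding member was found as a gene induced by retinoic acid.

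On GRCm38, Eepd1 (ENSMUSG00000036611.5) spans chr9:25481547-25604110 on the plus strand. Elmsan1 (ENSMUSG00000042507.15) spans chr12:84149176-84218881 and Gprc5b (ENSMUSG00000008734.9) chr7:118972047-118995211, both on the minus strand. Elmsan1 shares its chromosome with Ahr, 48614138 bp away. Exons of Gprc5b overlap those of Iqck on the other strand, and Iqck drew 1497 counts in all 64 libraries together. All 3 have a promoter entry in RefSeq (GRCm38.p6), Elmsan1 under the symbol Mideas. The sequences directly upstream of the outermost annotated start are shown because they are the stretch in which an AhR element next to the start would lie. They are written 5' to 3' on the strand of the gene, and capitals would mark a match to the core element AHRE I (GCGTG, either strand), of which the printed stretches hold none.
Eepd1, chr9:25481347-25481512, plus strand: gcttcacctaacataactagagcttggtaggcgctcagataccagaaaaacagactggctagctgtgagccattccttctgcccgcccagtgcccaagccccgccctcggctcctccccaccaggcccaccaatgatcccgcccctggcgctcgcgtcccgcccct
Elmsan1, chr12:84218882-84219131, minus strand: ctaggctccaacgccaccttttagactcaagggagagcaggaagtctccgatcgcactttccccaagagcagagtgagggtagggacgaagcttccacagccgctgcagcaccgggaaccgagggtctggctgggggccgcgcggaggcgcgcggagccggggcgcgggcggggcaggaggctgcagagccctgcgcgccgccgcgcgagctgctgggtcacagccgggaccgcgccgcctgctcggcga
Gprc5b, chr7:118995212-118995461, minus strand: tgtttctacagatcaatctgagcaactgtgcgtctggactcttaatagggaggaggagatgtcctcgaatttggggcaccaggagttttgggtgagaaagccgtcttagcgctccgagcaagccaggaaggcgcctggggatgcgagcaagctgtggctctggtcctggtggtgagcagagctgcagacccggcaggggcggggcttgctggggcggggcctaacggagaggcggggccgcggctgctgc
In the 250 bases before the start of the RefSeq promoter entry, GCGTG occurred 1 time at Eepd1, with its first base 42 bases before that start. The match was on the strand of the gene and lies beyond the printed stretch, inside the span that both annotations give the gene. Elmsan1, with 2 listed promoters, and Gprc5b held none in this window. The study searched a much longer stretch upstream and lists Gprc5b as holding an AHRE, so the window here does not speak to elements farther away. The letters are common, as 28.2% of 32851 promoter windows of this length held at least 1 match. Neither AHRE II (CATG, then 6 bases of any kind, then CATG or CTTG, found in 0.49% and 0.804% of windows) nor the RelB AHRE (GGGTGCAT, in 0.463%) occurred in these windows of the 3 genes, so that no match overlapped a match of another element.

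**Figure D1:**
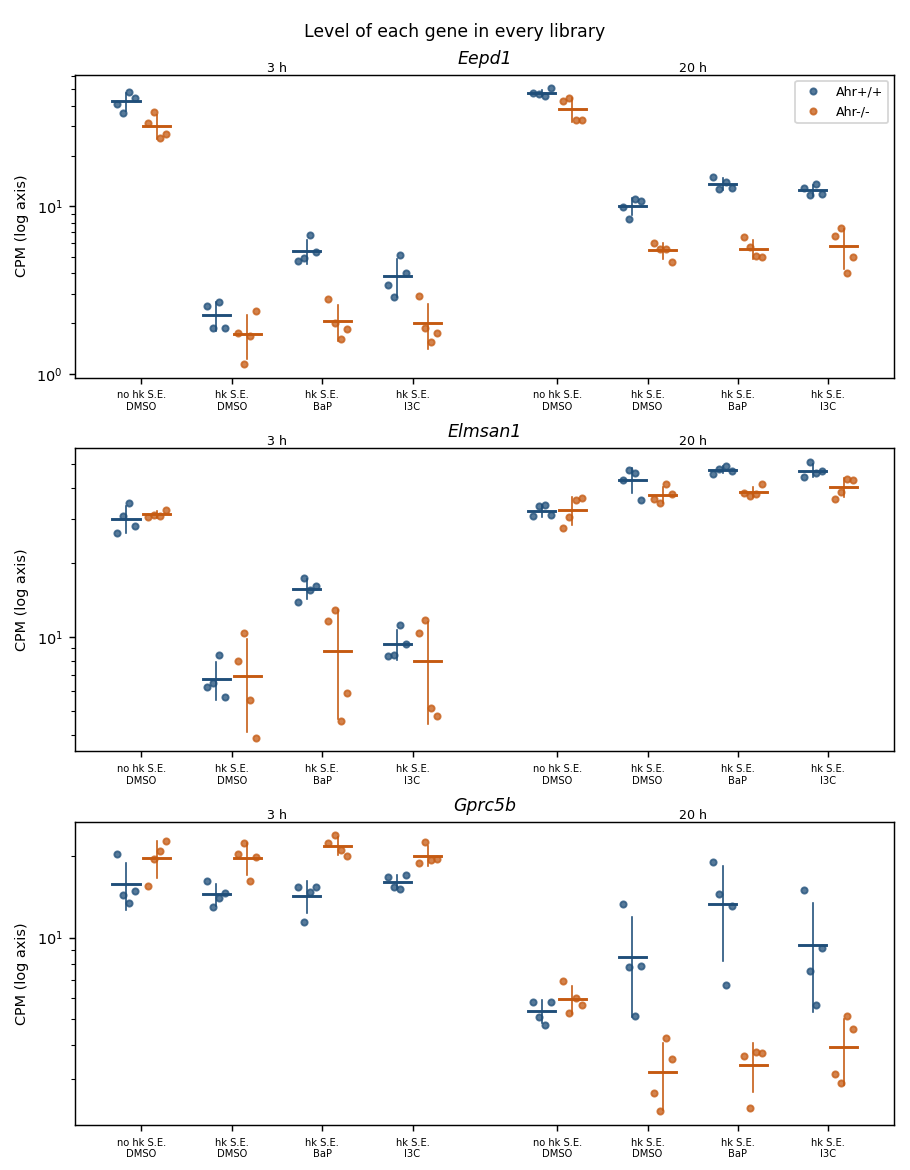
Level of each gene in every library, in CPM on a log axis, by treatment and time point, with Ahr+/+ libraries in blue and Ahr-/- libraries in orange. Points are the 4 libraries of a group, the horizontal bar is their mean and the vertical bar the SD. Eepd1 stood between 25.7 and 50.7 CPM without hk S.E. and between 1.14 and 6.70 CPM at 3 h of hk S.E.

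Eepd1 had high levels in unactivated BMMs, a deep fall at 3 h of hk S.E. and a partial return at 20 h. Elmsan1 fell less at 3 h, and its activated group means at 20 h exceeded its unactivated ones. Gprc5b was near its unactivated level at 3 h and lower at 20 h, with and without hk S.E. Over the 16 groups, the highest group mean exceeded the lowest 27.5-fold for Eepd1, 7.08-fold for Elmsan1 and 6.84-fold for Gprc5b. Across the 16 group means on the log2 scale, Elmsan1 followed Eepd1 (Pearson's r = 0.721), and Gprc5b ran opposite to Elmsan1 (r = -0.67) and less so to Eepd1 (r = -0.27). These correlations are descriptions, since the points share libraries and the strong contrast between activated and unactivated cells. Per kilobase of exon, the group means ranged from 0.590 to 16.2 CPM for Eepd1, 0.883 to 6.25 for Elmsan1 and 0.689 to 4.71 for Gprc5b, so that Eepd1 reached both the highest and the lowest level of the 3 on this scale.

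When the 16 groups were put in order of their mean, many neighbours were not apart by more than their spread. For Eepd1 the 4 libraries of a group did not overlap those of the next in 4 of 15 steps, and for Elmsan1 in 2. For Gprc5b no step was free of overlap. The order of Eepd1 began with the 4 unactivated groups, followed by the Ahr+/+ and then the Ahr-/- groups at 20 h of hk S.E., then the same at 3 h. Its Ahr+/+ BaP group at 3 h, at 5.42 CPM, lay next to the Ahr-/- groups at 20 h, at 5.45 to 5.77 CPM. Elmsan1 began with the 6 activated groups at 20 h, followed by the 4 unactivated groups and the 6 activated groups at 3 h. Gprc5b began with the Ahr-/- groups at 3 h and ended with the Ahr-/- groups at 20 h of hk S.E.

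In unactivated BMMs, Gprc5b was lower at 20 h than at 3 h. Its Ahr+/+ libraries held 20.4, 14.4, 13.5 and 14.8 CPM at 3 h against 5.79, 5.09, 4.76 and 5.78 CPM at 20 h, and its Ahr-/- libraries 15.6, 19.4, 20.9 and 22.7 CPM against 6.89, 5.26, 5.99 and 5.61 CPM. All 20 h libraries lay below all 3 h libraries (9.11% of genes in Ahr+/+ and 5.41% in Ahr-/- BMMs), with log2 fold changes of -1.55 ± 0.23 (adjusted p = 1.778e-06) and -1.72 ± 0.23 (adjusted p = 1.429e-07). Lower values than that of Gprc5b were found for 131 of 14537 genes in Ahr+/+ and 84 in Ahr-/- BMMs. Thus 1 of the 3 genes passed in each genotype, where 6.07% of all genes tested passed in Ahr+/+ and 6.98% in Ahr-/- BMMs. Those lower were 2.77% in Ahr+/+ and 3.46% in Ahr-/- BMMs (edgeR quasi-likelihood test, Benjamini-Hochberg adjusted over all genes tested, threshold 0.01). The unactivated Ahr-/- libraries at 20 h share a number series of library names. At 3 h only Ahr-/- replicate 1, with 15.6 CPM of Gprc5b, belongs to it, so series and time can be told apart only in part. Elmsan1 stood at 30.1 ± 3.69 and 32.5 ± 1.80 CPM at 3 h and 20 h in Ahr+/+, and 31.3 ± 0.940 and 32.7 ± 4.25 CPM in Ahr-/- BMMs, with overlapping libraries. For Eepd1 the change with time was 0.17 ± 0.15 (adjusted p = 0.5027) in Ahr+/+ and 0.34 ± 0.15 (adjusted p = 0.1401) in Ahr-/- BMMs. Tested as an interaction, the time course of unactivated cells did not pass between the genotypes for any of the 3 genes, nor for any gene tested (0%), with differences of -0.17 to 0.16 on the log2 scale for the 3. None of these 3 had an unadjusted p below 0.05 in edgeR, and DESeq2 and limma on the deposited log2 values called 0 of 3 too.

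Between the genotypes, 0 of the 3 genes passed in unactivated BMMs, where 1.21% of all genes did at 3 h (0.97% lower and 0.241% higher in Ahr-/-) and 0.702% at 20 h (0.482% and 0.22%). The nearest was Eepd1. At 3 h its Ahr+/+ libraries held 41.0, 36.0, 48.03 and 44.1 CPM and its Ahr-/- libraries 31.4, 36.7, 25.7 and 27.1 CPM, which overlap by 1 library. At 20 h they held 47.3, 46.8, 45.8 and 50.7 CPM against 42.8, 44.5, 32.8 and 32.9 CPM, with all Ahr-/- libraries below all Ahr+/+ libraries, as in 5.74% of genes. These Ahr-/- libraries at 20 h share a number series of library names, to which only replicate 1 of the Ahr+/+ libraries, at 47.3 CPM, belongs. Series and genotype can thus be told apart only in part at 20 h. The log2 fold changes, Ahr-/- against Ahr+/+, were -0.48 ± 0.15 (adjusted p = 0.07611) and -0.32 ± 0.15 (adjusted p = 0.3378). Those 2 values had an unadjusted p below 0.05 in edgeR, DESeq2 and limma called 0 of 3 at both time points, and the 95% intervals reached a fold of 0.582 for Eepd1 at 3 h. At the other end, Elmsan1 differed by 0.06 ± 0.19 and 0.01 ± 0.19 on the log2 scale, with intervals that allow 0.775-fold to 1.36-fold. Gprc5b differed by 0.32 ± 0.22 at 3 h and 0.15 ± 0.23 at 20 h, with adjusted p = 0.7563 and 0.8774.

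Activation by hk S.E. without ligand was tested in Ahr-/- BMMs. At 3 h, Eepd1 libraries held 1.74, 1.14, 1.68 and 2.36 CPM, on 25 to 38 counts each, against 25.7 to 36.7 CPM. Its log2 fold change was -4.15 ± 0.19 (adjusted p = 1.388e-26), and 133 of 14537 genes had a lower value. Elmsan1 libraries held 7.97, 10.4, 5.56 and 3.90 CPM against 30.7 to 32.7 CPM, a log2 fold change of -2.16 ± 0.21 (adjusted p = 1.892e-13). For both genes all activated libraries lay below all unactivated ones, as in 30.6% of genes. Gprc5b, at 19.7 ± 2.61 CPM with and 19.7 ± 3.05 CPM without hk S.E., had a log2 fold change of 0.00 ± 0.22 (adjusted p = 0.9929). So 2 of 3 genes were lower, in a comparison in which 31.8% of genes passed as lower and 57.3% in either direction. Fewer cells that express a gene and less RNA per cell cannot be told apart in bulk RNA. The summed neutrophil markers moved with this comparison, from 18.3 to 21.4 CPM without to 105 to 109 CPM with hk S.E., and their part in the result was not tested.

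At 20 h of hk S.E. the Ahr-/- BMMs still had less Eepd1 than unactivated cells, and now less Gprc5b. Eepd1 libraries held 6.05, 5.55, 5.56 and 4.65 CPM, a log2 fold change of -2.81 ± 0.16 (adjusted p = 4.751e-22). Gprc5b libraries held 2.66, 2.29, 4.27 and 3.55 CPM, against 5.26 to 6.89 CPM without hk S.E., a log2 fold change of -0.89 ± 0.24 (adjusted p = 0.0009384). Elmsan1 was at 36.1, 35.0, 41.6 and 38.1 CPM, a log2 fold change of 0.20 ± 0.19 (adjusted p = 0.3612), and overlapped its unactivated libraries. Again 2 of 3 passed as lower, beside 26% of genes lower and 54.3% in either direction, and both had all activated libraries below all others (24.7% of genes). The summed neutrophil markers were back at 21.3 to 31.4 CPM, and the summed macrophage markers were at 19756.2 to 31884.7 CPM against 28138.2 to 32866.4 CPM without hk S.E.

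Set against each other within the activated Ahr-/- cells, 20 h and 3 h differed for all 3 genes, where 56% of all genes passed, 31.7% as higher and 24.3% as lower at 20 h. All 20 h libraries lay above all 3 h libraries for Elmsan1 and Eepd1 (30.7% of genes), and below for Gprc5b (23.6%). Elmsan1 was 5.38-fold higher at 20 h (log2 2.43 ± 0.21, adjusted p = 4.502e-15) and Eepd1 3.19-fold higher (log2 1.67 ± 0.19, adjusted p = 5.05e-11). Gprc5b was lower at 20 h (log2 -2.62 ± 0.24, adjusted p = 3.443e-14). The library names of the 3 h group all belong to another number series than those of the 20 h group. Series and time thus cannot be told apart between these groups, which also enter the next comparison. The difference between the activation responses at 20 h and at 3 h, which takes the change of unactivated cells with time into account, was tested too. It passed for 2 of 3 genes (44.7% of all genes, 25.2% with a positive and 19.4% with a negative difference), with 2.36 ± 0.28 for Elmsan1 (adjusted p = 2.688e-10) and 1.34 ± 0.24 for Eepd1 (adjusted p = 5.519e-06). For Gprc5b it was -0.90 ± 0.32 (adjusted p = 0.01591), which missed the threshold of 0.01. With the replicate number as a block it passed (adjusted p = 0.001742), as it did with DESeq2 (adjusted p = 0.004627).

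The hk S.E. responses of Ahr+/+ BMMs are descriptions, as their DMSO libraries entered the choice. At 3 h the log2 fold changes were -4.24 ± 0.19 for Eepd1, -2.16 ± 0.21 for Elmsan1 and -0.13 ± 0.22 for Gprc5b. The activated libraries lay below all others for Eepd1 and Elmsan1 (35.2% of genes), and here too the summed neutrophil markers moved, from 14.6 to 37.3 CPM without to 104 to 238 CPM with hk S.E. At 20 h the values were -2.24 ± 0.16, 0.41 ± 0.19 and 0.65 ± 0.23, with all activated libraries below for Eepd1 (32.7% of genes) and above for Elmsan1 (33.2%). The summed macrophage markers moved with this comparison, from 25433.4 to 28772.9 CPM without to 18090.8 to 22161.5 CPM with hk S.E., with no overlap, and their part in these values was not tested. The 4 DMSO libraries at 20 h of hk S.E. held 9.97, 8.44, 11.03 and 10.7 CPM of Eepd1. All of these lay above the Ahr-/- libraries given before, which were at most 6.05 CPM. Gprc5b held 13.3, 7.77, 5.12 and 7.88 CPM, above the highest Ahr-/- library at 4.27 CPM. The log2 fold changes, Ahr-/- against Ahr+/+, were -0.89 ± 0.16 for Eepd1 and -1.40 ± 0.24 for Gprc5b, while Elmsan1 differed by -0.20 ± 0.19 with overlapping libraries. Here too the library names of each genotype belong to a different number series, so that series and genotype cannot be told apart. At 3 h the libraries of the 2 genotypes overlapped for all 3 genes. Of all genes, 11.9% had every Ahr-/- library below every Ahr+/+ library at 20 h.

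**Figure D2:**
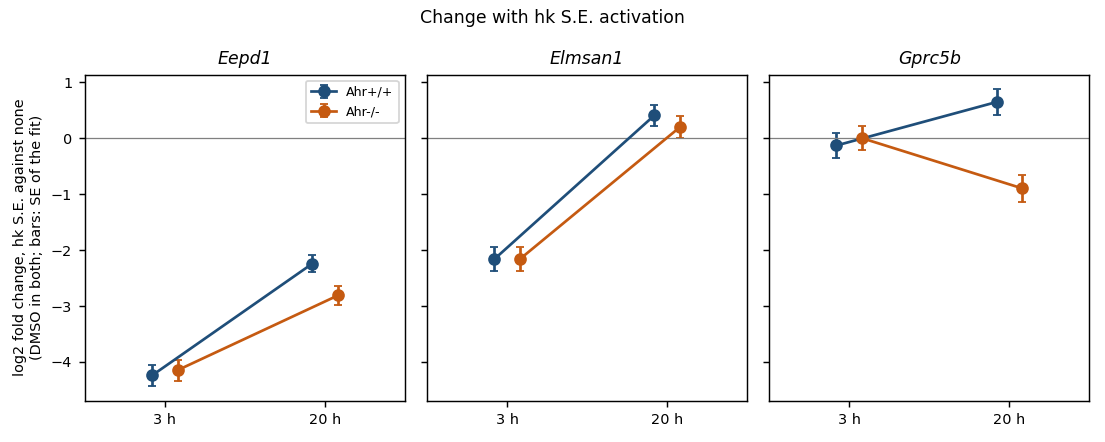
Log2 fold change of each gene with hk S.E. against unactivated cells, DMSO in both, at 3 h and 20 h, for Ahr+/+ (blue) and Ahr-/- (orange) BMMs, with bars for the SE of the fit over 64 libraries. Eepd1 moved from -4.15 at 3 h to -2.81 at 20 h in Ahr-/- BMMs, and at 20 h Gprc5b lay at 0.65 (Ahr+/+) and -0.89 (Ahr-/-).

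The ligand responses of Ahr+/+ BMMs are those for which the genes were picked. At 3 h of hk S.E., Eepd1 held 2.53, 1.87, 2.70 and 1.88 CPM with DMSO and 4.69, 4.94, 6.70 and 5.35 CPM with BaP, on 29 to 39 and 49 to 105 counts per library. Elmsan1 held 6.26, 6.50, 8.45 and 5.69 CPM with DMSO and 13.8, 17.4, 15.4 and 16.1 CPM with BaP. For both genes every BaP library lay above every DMSO library, as in 2.18% of all genes, and the log2 fold changes were 1.29 ± 0.20 and 1.22 ± 0.22. Gprc5b was not among them. It stood at 14.4 ± 1.32 CPM with DMSO and 14.2 ± 1.92 CPM with BaP, a log2 fold change of -0.01 ± 0.23.

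These levels remained below those of unactivated cells. Eepd1 was at 5.31% of its unactivated Ahr+/+ mean with DMSO and at 12.8% with BaP. Elmsan1, which had fallen less, was at 22.4% with DMSO and 52.1% with BaP. In Ahr-/- BMMs the same shares with DMSO were 5.73% and 22.2%, and with BaP 6.84% and 27.8%.

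At 20 h, Eepd1 held 14.97, 12.7, 13.98 and 12.9 CPM with BaP, again above every DMSO library (4.03% of genes), with a log2 fold change of 0.44 ± 0.15. Elmsan1 held 45.9, 48.02, 49.5 and 46.9 CPM with BaP against 43.4, 47.4, 46.1 and 36.0 CPM with DMSO, a log2 fold change of 0.14 ± 0.19 with overlap. Gprc5b held 18.9, 14.4, 6.66 and 13.04 CPM with BaP. It was higher than DMSO in each of 4 same-numbered pairs, with a log2 fold change of 0.65 ± 0.22, but the libraries of a group ranged so widely that the groups overlapped. Against unactivated Ahr+/+ cells at 20 h, Gprc5b stood at 159% with DMSO and 248% with BaP, and Elmsan1 at 133% and 146%. Eepd1, at 21.1% and 28.6%, remained below.

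I3C was given at another dose than BaP, so its values are set beside and not compared. At 3 h Eepd1 held 3.38, 2.86, 5.14 and 3.98 CPM and Elmsan1 8.39, 8.40, 11.2 and 9.32 CPM. Against DMSO the log2 fold changes were 0.78 ± 0.21 and 0.47 ± 0.22, and of both only Eepd1 had no overlap between libraries (3.5% of genes). The lowest Elmsan1 library with I3C, at 8.39 CPM, lay just under the highest with DMSO, at 8.45 CPM. At 20 h Eepd1 held 12.9, 11.7, 13.6 and 11.8 CPM with I3C, which lay above every DMSO library (1.92% of genes). The log2 fold changes at 20 h were 0.31 ± 0.16 for Eepd1, 0.13 ± 0.19 for Elmsan1 and 0.14 ± 0.23 for Gprc5b.

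**Figure D3:**
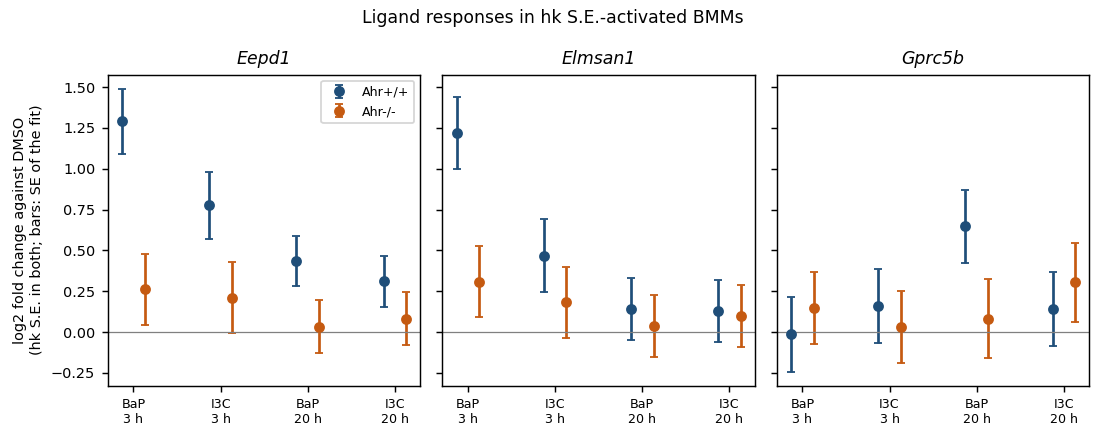
Log2 fold change of each gene with BaP or I3C against DMSO, all with hk S.E., for Ahr+/+ (blue, descriptions of the responses that chose the genes) and Ahr-/- (orange, tested) BMMs, with bars for the SE of the fit. In Ahr-/- BMMs the 12 values ranged from 0.03 to 0.31 and none passed the test.

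In Ahr-/- BMMs the same ligands gave 0 of 3 genes in each of the 4 comparisons. Of all genes, 0.0275% passed with BaP at the early and 0.0138% at the late time point, and with I3C 0.0206% and 0.206%, all of them as lower and 0% as higher. No unadjusted p of the 12 values was below 0.05, adjusted p ranged from 0.7988 to 1, and DESeq2 and limma on the deposited log2 values gave 0 of 3 as well. At 3 h the Eepd1 libraries held 2.78, 2.02, 1.61 and 1.85 CPM with BaP, a log2 fold change of 0.26 ± 0.22 (adjusted p = 0.7998), with a 95% interval of -0.18 to 0.70. For Elmsan1 they held 11.6, 12.8, 4.57 and 5.89 CPM, a log2 fold change of 0.31 ± 0.22 (adjusted p = 0.7988), with an interval of -0.13 to 0.74. The Ahr+/+ value minus the Ahr-/- value with BaP at 3 h was 1.03 ± 0.30 for Eepd1, 0.91 ± 0.31 for Elmsan1 and -0.16 ± 0.32 for Gprc5b. With BaP at 20 h it was, in the same order, 0.40 ± 0.22, 0.10 ± 0.27 and 0.57 ± 0.33. With I3C at 3 h it was 0.57 ± 0.30, 0.29 ± 0.31 and 0.13 ± 0.32. With I3C at 20 h it was 0.23 ± 0.22, 0.03 ± 0.27 and -0.16 ± 0.33. These differences are given with no test, as the Ahr+/+ values chose the genes.

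All 12 log2 fold changes of the Ahr-/- cells were above 0 in the main fit, and at most 0.31. Some of them went below 0 under an alternative run, at the lowest -0.085 for Elmsan1 with I3C at 3 h. The comparisons of a time point share their DMSO libraries, so that these values are not independent of each other. Eepd1 with I3C held 2.90, 1.86, 1.55 and 1.74 CPM at 3 h and 6.65, 7.44, 4.02 and 4.96 CPM at 20 h, with log2 fold changes of 0.21 ± 0.22 (adjusted p = 0.9886) and 0.08 ± 0.16 (adjusted p = 0.9989). The 95% intervals allow at most 1.57-fold at 3 h and 1.33-fold at 20 h. Gprc5b at 20 h, at 3.66, 2.34, 3.79 and 3.74 CPM with BaP and 3.13, 2.90, 5.12 and 4.58 CPM with I3C, had log2 fold changes of 0.08 ± 0.24 (adjusted p = 1) and 0.31 ± 0.24 (adjusted p = 0.9989). The 95% intervals were -0.40 to 0.57 for BaP and -0.18 to 0.79 for I3C.

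For 2 of the 3 genes, picked out here after their values were seen, same-numbered libraries were high or low in each activated group of a genotype and time point. In Ahr-/- BMMs at 3 h of hk S.E., Elmsan1 was high in replicates 1 and 2, at 7.97 to 12.8 CPM, and low in replicates 3 and 4, at 3.90 to 5.89 CPM, with DMSO, BaP and I3C alike. Without hk S.E. the same numbers held 30.7, 31.1, 30.8 and 32.7 CPM, with no such split. In Ahr+/+ BMMs at 20 h of hk S.E., Gprc5b was highest in replicate 1, at 13.3, 18.9 and 15.05 CPM with DMSO, BaP and I3C, and lowest in replicate 3, at 5.12, 6.66 and 5.66 CPM. Without hk S.E. these replicates held 5.79 and 4.76 CPM. A median CV within groups of 10.6% was found for Elmsan1, 14.5% for Gprc5b and 16.4% for Eepd1, the gene with the fewest counts per library, at a median of 209.5.

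**Figure D4:**
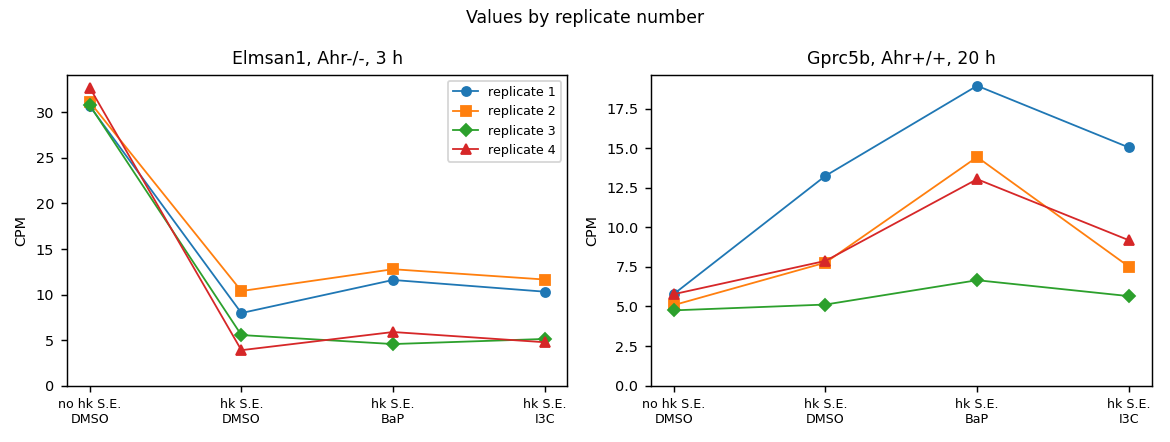
CPM of Elmsan1 in Ahr-/- BMMs at 3 h (left) and of Gprc5b in Ahr+/+ BMMs at 20 h (right) by treatment, with a line for each replicate number. Elmsan1 replicates 1 and 2 lie at 7.97 CPM or more and replicates 3 and 4 at 5.89 CPM or less in all groups given hk S.E., and Gprc5b replicate 1 is the highest in each of them.

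The genes of the same pathways were taken from fixed lists and followed in the Ahr-/- activation comparisons, with genes named by their size at 3 h. Of 16 LXR target genes of lipid handling that passed the filter, 6 fell and 1 rose at 3 h, and 8 fell and 3 rose at 20 h, with median log2 fold changes of -0.15 and -0.32 beside -0.08 and 0.02 for all genes tested. Of all genes tested, 31.8% fell and 57.3% passed in either direction at 3 h, and 26% and 54.3% at 20 h, so that the 6 of 16 that fell at 3 h are a share near that of all genes. The largest changes at 3 h were those of Scd2, a stearoyl-CoA desaturase (log2 -3.87), Mertk, a receptor for the uptake of dying cells (-1.78), Abcg1, a cholesterol transporter (-1.14) and Mylip, the ligase that degrades the LDL receptor (-1.13). At 20 h Scd2 rose (log2 0.83), Mertk (-3.61) and Mylip (-0.88) fell, and Abcg1 was at -0.30 (adjusted p = 0.04248). Abcg1 and Mylip had, like Eepd1, a larger negative value at 3 h than at 20 h, while Scd2 changed direction and Mertk was lower at 20 h than at 3 h. Naming genes by their size at 3 h favours larger values at 3 h, so no likeness to Eepd1 is drawn from them. In the list of 16, the difference between the responses at 20 h and 3 h passed as positive for 3 genes and as negative for 6. Of all genes, 25.2% and 19.4% did so.

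Of 10 nucleases and resection factors around Eepd1, 6 fell and 1 rose at 3 h and 3 fell and 1 rose at 20 h, with a median of -1.01 at 3 h. Beside these counts stand 31.8% and 26% of all genes as lower, and the count at 20 h is near that share. Exo1 (-3.06) and Dna2 (-2.33), both nucleases of end resection, fell with Eepd1 at 3 h, as did Tdp2, a phosphodiesterase of the same domain family (-1.78). Rbbp8, which starts resection, rose (2.15). At 20 h Exo1 was lower still (-5.46), whereas Dna2 (-0.27, adjusted p = 0.04295) and Tdp2 (-0.46, adjusted p = 0.1794) did not pass.

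Among 15 partners and relatives of Elmsan1 in MiDAC and other ELM2-SANT complexes, 5 rose and 4 fell at 3 h and 4 rose and 4 fell at 20 h, both near the 57.3% and 54.3% of all genes that passed in either direction. Trerf1, the alternative ELM2-SANT subunit of MiDAC, fell at 3 h (-2.13) as Elmsan1 did, and stayed lower at 20 h (-1.46). Hdac1, the deacetylase, rose (1.38 and 0.54), and so did Mier3 (2.74) and Rcor2 (1.89), scaffolds of other complexes, at 3 h. The GPRC5 family had 2 genes besides Gprc5b that passed the filter. Gprc5c fell at 20 h, from 189 to 512 counts per library without to 1 to 3 with hk S.E., and was at 0.05 at 3 h (adjusted p = 0.8468). Gprc5a, with at most 9 counts in any of these libraries, rose at 3 h and fell at 20 h. In the AhR list, 2 of 6 genes rose and 1 fell at 3 h, namely Tiparp (4.29), Ahr (0.95) and Ahrr (-3.04), and 4 rose and 1 fell at 20 h. The 3 of 6 at 3 h are a share near the 57.3% of all genes, and at 20 h 54.3% of all genes passed. All 6 hk S.E. activation markers rose at both time points. With BaP or I3C in Ahr-/- BMMs, none of the genes of these 6 lists passed at either time point.

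**Figure D5:**
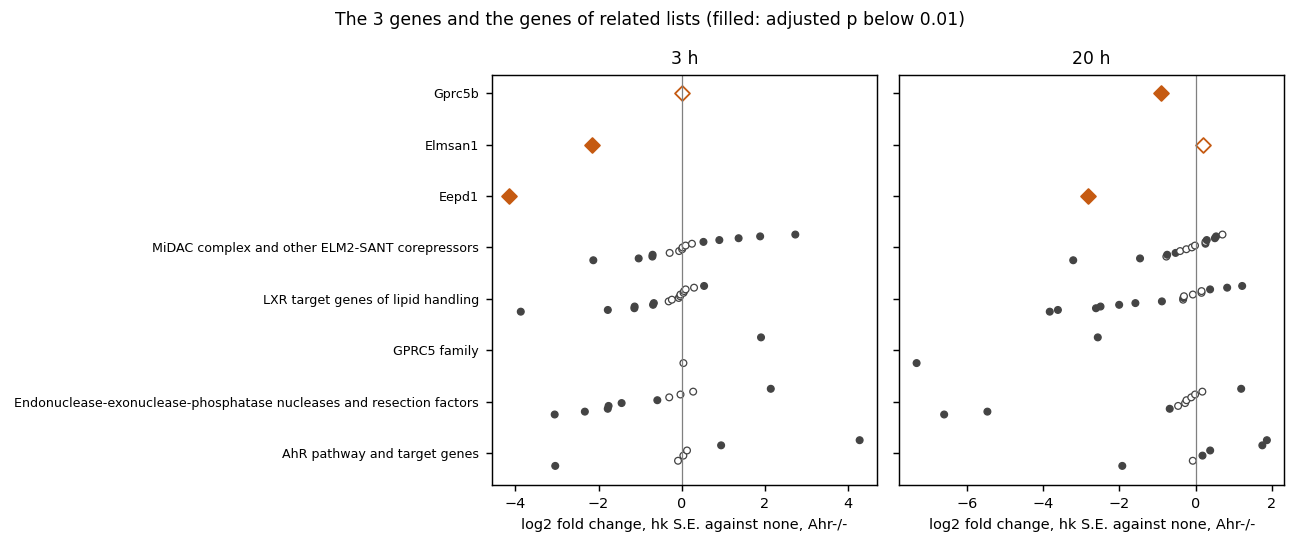
Log2 fold change with hk S.E. against unactivated Ahr-/- BMMs at 3 h (left) and 20 h (right) for the 3 genes (diamonds) and for each gene of 5 of the lists (circles, activation markers left out), filled where the adjusted p was below 0.01. Eepd1 lies at -4.15 at 3 h, Elmsan1 at -2.16 and Gprc5b at 0.00.

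The genes whose level over the 16 group means was most like that of each member were ranked by Pearson's correlation of log2 CPM, as a description. For Eepd1 they were Cdk20 (r = 0.987), Sh2d3c, Fblim1, Tecpr1 and Haus8. Elmsan1 was followed by Cnpy3 (r = 0.983), Galt, Gemin2, Ngrn and Atg4c, and Gprc5b, with lower values, by Cacna1b (r = 0.946), Itgb7, Atp2b1, Dot1l and Sestd1. With hk S.E. in Ahr-/- BMMs at 3 h, the 5 genes had log2 fold changes of -2.77 to -1.13 for Eepd1, -1.81 to -0.67 for Elmsan1 and -0.05 to 0.41 for Gprc5b. With BaP in Ahr+/+ BMMs at 3 h, the 5 genes had log2 fold changes of 0.04 to 0.13 beside the 1.29 of Eepd1 and of 0.12 to 0.37 beside the 1.22 of Elmsan1. For Gprc5b at 20 h, where its value was 0.65, the 5 genes had 0.13 to 0.57. The 3 genes were chosen on these Ahr+/+ responses and the genes like them were not, so larger values of the 3 follow from the choice. The 16 group means also include the ligand groups that chose the genes.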

How the data were processed

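The genes and the gene lists were chosen with earlier results of these data known, and 1 further gene of the selection and the list around it are not reported here. Per the submitters' processing notes and the study's methods, the authors demultiplexed the reads with bcl2fastq 2.19.0.316, aligned them to GRCm38 (mm10) with HISAT2 2.1.0 and counted reads per gene with HTSeq 0.9.1 on strand, with GENCODE release M22. The deposited count tables hold these raw counts, 1 table per library. A second table deposited by the authors holds log2 values after a variance-stabilizing transformation (VST) of the counts of all libraries, and was used for 1 alternative only. Rows that name no gene were left out of library sizes: reads on no feature made up 3.41% to 5.92% of each library, ambiguous reads 1.06% to 1.61%, low-quality alignments 0.831% to 5.63%, unaligned reads 0.350% to 0.853% and multiply aligned reads 12.4% to 15.8%. Of 55487 gene identifiers, 55094 matched a symbol in GENCODE M21, which also gave the positions.

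Genes with low counts were removed with filterByExpr (minimum count 10), which left 14537. Counts were scaled with TMM and fitted in edgeR 4.0.16 (R 4.3.3) with the quasi-likelihood model, 16 group means over all 64 libraries and 48 residual degrees of freedom. P-values were adjusted by Benjamini-Hochberg over all genes tested, with a threshold of 0.01. The edgeR fit and test were tried on simulated counts before use, for hk S.E. in Ahr-/- BMMs at 3 h with 200 changed genes. The other steps were not tried in this way. Contrasts that use activated Ahr+/+ libraries are given without a test, as these libraries chose the genes. No 2 libraries were identical (highest correlation 0.9984). The p-values measure the spread between libraries, as the labels do not tie libraries to mice. Deviations of same-numbered libraries correlated at 0.2515 to 0.6435 in the Ahr-/- ligand contrasts, at 0.3191 to 0.5213 for hk S.E. at 20 h, and above 0.1 in 3 of 4 pairs for hk S.E. at 3 h. In Ahr+/+ BMMs they correlated at 0.09877 to 0.23 for BaP at 20 h. For hk S.E. they did so at 0.03468 to 0.126 at 3 h and 0.04823 to 0.2527 at 20 h. Same-numbered pairs of Ahr+/+ libraries are thus only weakly borne out as pairs.

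Named were the 3 genes, the 5 genes most like each over 16 group means, at most 4 passing genes per list by size of log2 fold change at 3 h of hk S.E., and Ahr, Ahrr and the activation markers as checks of the labels. Alternatives were DESeq2 1.42.0, limma 3.58.1 on the VST values, RLE size factors, no filter on low counts, the compared groups alone, a covariate for the number series of the library names, a threshold of 0.05, the replicate number as a block, and leaving out each library in turn. The number series follows genotype and time point in part, and the labels do not say what it stands for. Where each compared group lies in a single series, the covariate rests on the other groups.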

Additional observations from a re-analysis of the deposited data

Results flagged for a closer look

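In 3 of the 48 gene and group combinations, 1 library stood apart from the other 3 by more than Dixon's 95% critical value for 4 samples, which chance gives in about 1 of 20 groups. Gprc5b was at 11.4 CPM in replicate 2 of Ahr+/+ BMMs with BaP at 3 h, against 14.7 to 15.4 CPM. It was at 22.6 CPM in replicate 2 of Ahr-/- BMMs with I3C at 3 h, against 18.9 to 19.5 CPM, and at 2.34 CPM in replicate 2 of Ahr-/- BMMs with BaP at 20 h, against 3.66 to 3.79 CPM.

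The response to hk S.E. differed between 20 h and 3 h in Ahr-/- BMMs by 2.36 for Elmsan1 and 1.34 for Eepd1 on the log2 scale, both past the test of the interaction. For Elmsan1, every same-numbered pair of Ahr-/- libraries fell at 3 h and was higher with hk S.E. at 20 h, with mean log2 differences of -2.25 and 0.21, which lie -2.46 apart. The same held in Ahr+/+ BMMs, with -2.16 and 0.40, which lie -2.56 apart, and there the difference was not tested. At 20 h of hk S.E., Gprc5b was higher than without in all 4 pairs of Ahr+/+ libraries, with a mean of 0.58. It was lower in all 4 pairs of Ahr-/- libraries (-0.92), and the means lie 1.5004 apart. The Ahr+/+ pairs ranged from 0.11 to 1.19, and the Ahr+/+ libraries with and without hk S.E. overlapped. The activated libraries of each genotype also belong to a different number series. The difference between the genotypes was not tested, because the Ahr+/+ libraries were part of the choice of the genes.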

How the results depend on the processing

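For the 13 tested comparisons, the number of the 3 genes that passed was within 1.5 times the reported number under each alternative run. A sign change was counted as a reversal only at an unadjusted p below 0.32, a limit set after the data were seen, and no such reversal occurred. Sign changes that did not meet this limit did occur, among them those of some Ahr-/- ligand values. The exception among single genes was Gprc5b in the difference between the hk S.E. responses at 20 h and 3 h, which passed with the replicate number as a block (log2 -0.91, adjusted p = 0.001742), RLE size factors (-1.002), the compared groups alone (-0.95), DESeq2 (-1.003), a threshold of 0.05 (-0.90), and without replicate 3 of the Ahr-/- DMSO group with hk S.E. at 3 h (-1.03) or at 20 h (-1.05). The block, fitted within genotypes, changed no other call. Described Ahr+/+ values were smaller on the VST scale, with 0.83 for Eepd1 with BaP at 3 h. Elmsan1 with BaP in Ahr-/- BMMs at 3 h ranged from 0.06 to 0.57 when 1 library was left out. The cause of these shifts was not tested. Eepd1 at 3 h of hk S.E. without ligand rests on 25 to 39 counts per library, which limits its precision.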
